A study of Mus musculus with 5 samples.

Results

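The genes described here encode the enzymes that write, copy and remove DNA methylation. There are 9 in the list. Dnmt1 and Uhrf1 maintain methylation after replication, Dnmt3a, Dnmt3b and the cofactor gene Dnmt3l establish it, Tet1, Tet2 and Tet3 oxidise it, and Tdg excises the oxidised bases. Genes were chosen by name, with every probe set that the platform annotation assigns to that single gene, and the brightest of them on average stood for the gene. By this rule 8 of the 9 genes had a probe set, 20 in all, out of 18193 genes and 34945 probe sets. The 3 probe sets annotated to Tdg are shared with 2 Tdg pseudogenes, so Tdg was given no value. Of the 8, 6 lay above the detection floor on all 5 arrays, Tet3 lay above it on some arrays, and Dnmt3l on none of them.

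The samples were cells derived from mouse embryonic stem cells and directed to a pancreatic fate on gelatin, measured on Affymetrix expression arrays. The 5 groups were untreated cells at day 5, day 6 and day 8 and cells given 2 µM MPA from day 5, taken at day 6 (1 day of MPA) and day 8 (3 days). No strain, cell line or genotype was named, and the labels do not spell MPA out. Each group had 1 array, so a difference between a pair of groups has no replicate check, and only its size is stated. Precision is limited by this number of arrays. The signal is a linear intensity scaled alike on every array, and the floor is its median over all non-control probe sets, 86.8.

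Methyl groups on cytosine are placed on unmethylated CpG sites by the de novo enzymes DNMT3A and DNMT3B. After replication UHRF1 binds the hemimethylated sites and brings DNMT1 to copy the mark. TET enzymes oxidise the methyl group, after which it is lost by dilution or by excision through TDG and base excision repair. In the embryo Dnmt3b, Tet1 and, in part, Dnmt3l are known as genes of the pluripotent stage, while Dnmt1 and Uhrf1 are most active in dividing cells.

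The promoters of Dnmt3b and Tet1 are shown because these were the members 2-fold or more lower in the day 8 control than at day 5. Each is the RefSeq sequence (build GRCm38.p6) of the 250 bases before the annotated start, with CpG sites, the substrate of these enzymes, in capitals. The promoter of Uhrf1, the member 2-fold or more higher there, is shown at the second of its annotated starts, with an E2F motif in capitals.
Dnmt3b, chr2:153649199-153649448, plus strand: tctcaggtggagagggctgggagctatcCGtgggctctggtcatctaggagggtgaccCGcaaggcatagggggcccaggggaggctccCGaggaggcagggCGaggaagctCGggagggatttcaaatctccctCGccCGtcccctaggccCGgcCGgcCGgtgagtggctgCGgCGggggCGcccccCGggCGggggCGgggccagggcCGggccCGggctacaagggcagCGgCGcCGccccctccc
Tet1, chr10:62887325-62887574, minus strand: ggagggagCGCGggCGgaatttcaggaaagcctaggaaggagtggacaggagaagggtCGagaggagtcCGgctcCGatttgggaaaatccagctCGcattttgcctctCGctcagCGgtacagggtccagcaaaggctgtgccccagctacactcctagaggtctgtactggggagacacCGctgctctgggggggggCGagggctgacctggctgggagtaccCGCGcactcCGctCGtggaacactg
Uhrf1, chr17:56304063-56304312, plus strand: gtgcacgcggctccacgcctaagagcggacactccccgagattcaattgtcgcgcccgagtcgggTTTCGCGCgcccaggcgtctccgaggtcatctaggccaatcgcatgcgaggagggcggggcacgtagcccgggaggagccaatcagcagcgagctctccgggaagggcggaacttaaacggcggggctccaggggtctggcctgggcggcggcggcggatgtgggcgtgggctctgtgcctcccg
The Dnmt3b window held 21 CpG sites and the Tet1 window 15, against a median of 6 over 32536 windows of the same length, of which 16.5% held at least 21 and 27.5% at least 15. E2F factors drive genes of the S phase. Their motif was searched as TTTCCCGC, TTTCGCGC, TTTGCCGC and TTTGGCGC on both strands, and 1.87% of all windows held it. It was found in 1 of the 2 Uhrf1 windows and in 1 of the 3 Dnmt1 windows, and in no window of the other members. The octamer ATGCAAAT, bound by POU factors, and the SOX motif CTTTGTT, which 1.62% and 5.02% of all windows held, were in no member's window. A match describes the letters only.

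Across the arrays Dnmt3b had the widest range of the members above the floor. Its signal was 13718 in day 5 cells, 4266 and 1336 in the controls of days 6 and 8, and 5094 and 1172 in the MPA arrays of these days. The day 5 array was the highest and both day 8 arrays the lowest, with or without MPA. In the controls Dnmt3b was 3.22-fold lower at day 6 than at day 5, and 3.19-fold lower at day 8 than at day 6. Over both steps it was 10.3-fold lower, a log2 difference of -3.36, and 0.313% of the 12784 measured genes were as far or farther down. With MPA the step from day 6 to day 8 was 4.35-fold. Its second probe set gave the same picture, with 8895 at day 5 and 602 in the day 8 control. Both Dnmt3b probe sets carry the suffix _a_at, given to probe sets that read several transcripts of a gene. DNMT3B is the main de novo methyltransferase of the early embryo.

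**Figure D1:**
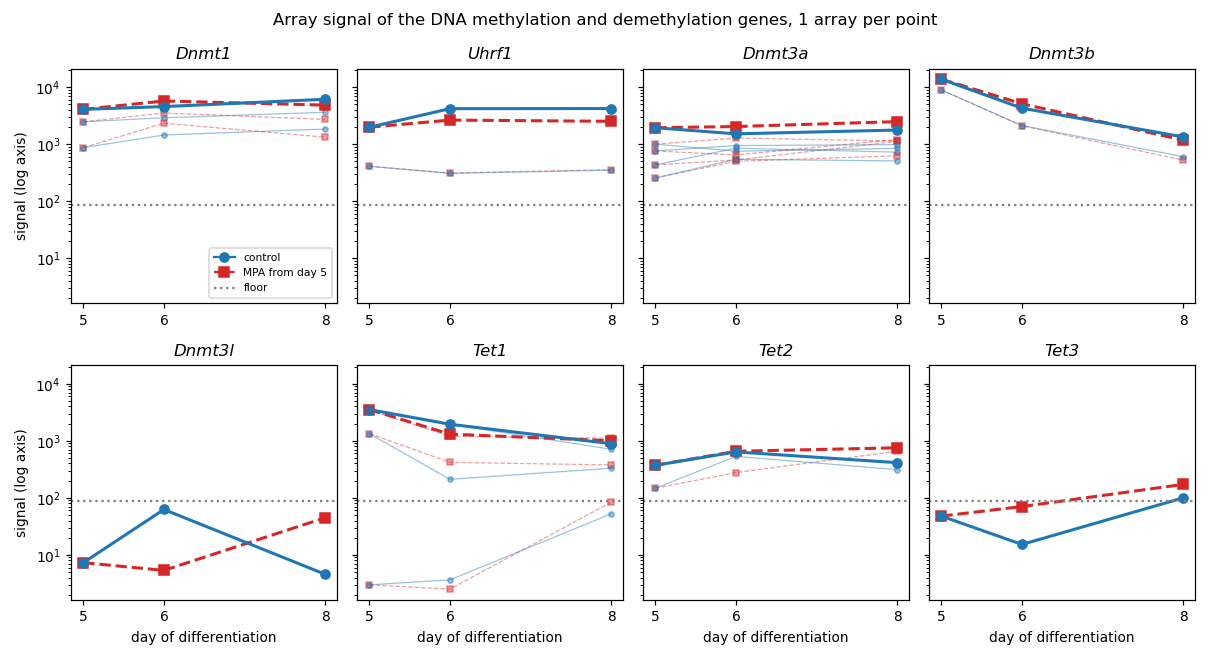
Signal (log axis) of each gene against day of differentiation, 1 array per point, with controls in blue and MPA in red (both lines start from the untreated day 5 array), the brightest probe set as a thick line, the other probe sets as thin lines and the floor of 86.8 dotted. Dnmt3b runs from 13718 at day 5 to 1336 in the day 8 control, while Dnmt3l stays under the floor on all 5 arrays.

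Dnmt3a, the other de novo enzyme gene, stayed in a narrow range on its brightest probe set. That probe set read 1935 in day 5 cells, 1512 and 1763 in the controls of days 6 and 8, and 2032 and 2476 in the MPA arrays of these days. Its highest and lowest arrays were 1.64-fold apart. Dimmer probe sets of the gene ran, for example, from 432 to 1114 and from 255 to 626. The control at day 8 stood 1.10-fold below day 5, and the dimmer probe sets did not follow one direction there, with log2 differences from -0.25 to 0.99 over the other 4. All 5 probe sets lay above the floor on every array, and all 5 were annotated to the same gene. Dnmt3l encodes a catalytically inactive partner that stimulates the de novo enzymes. Its only probe set read between 4.57 and 62.5, under the floor on all 5 arrays, so no fold is given.

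By brightest probe set Dnmt1, of the maintenance enzyme, had the smallest range of the members above the floor. It read 4064 in day 5 cells, 4546 and 6106 in the controls of days 6 and 8, and 5700 and 4822 in the MPA arrays of these days. Day 5 was the lowest array and the day 8 control the highest, 1.50-fold apart. The 2 dimmer probe sets were higher in the day 8 control than at day 5 as well, by log2 differences of 0.55 and 1.09. The dimmest of the 3 ran from 865 at day 5 to 2328 with MPA at day 6. All 3 probe sets carry the suffix _a_at or _x_at, which marks probe sets that may also read related transcripts.

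Uhrf1, whose protein reads hemimethylated CpG sites, was 2.13-fold higher in the day 8 control than at day 5. Its brightest probe set read 1974 in day 5 cells, 4178 and 4204 in the controls of days 6 and 8, and 2635 and 2508 in the MPA arrays of these days. Both later controls stood high and close to each other, and both MPA arrays lay between them and day 5. The dimmer probe set, 408 at day 5 and between 307 and 356 on the other 4 arrays, did not show this pattern, so the Uhrf1 differences rest on 1 of its 2 probe sets.

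Tet1, of the TET enzyme of pluripotent cells, was 3.96-fold lower in the day 8 control than at day 5. Its signal was 3523 in day 5 cells, 1950 and 890 in the controls of days 6 and 8, and 1307 and 1001 in the MPA arrays of these days. Day 5 was the highest array, and the day 8 arrays were the lowest. It was 1.81-fold lower at day 6 than at day 5 and 2.19-fold lower at day 8 than at day 6, in the controls. Of its dimmer probe sets, 2 exceeded the floor and were also lower at day 8 than at day 5, by log2 differences of -2.27 and -2.02. They split at the second step, where the probe set that had read 1336 at day 5 and 211 in the day 6 control read 330 in the day 8 control. The fourth Tet1 probe set lay under the floor on all 5 arrays.

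Tet2 and Tet3, the TET genes of many differentiated tissues, were dimmer. Tet2 read 372 in day 5 cells, 638 and 413 in the controls of days 6 and 8, and 655 and 753 in the MPA arrays of these days. Its second probe set had the same order in the controls, 147, 532 and 312 from day 5 to day 8. Tet3, with 1 probe set, was under the floor at day 5 and in both day 6 arrays (47.8, 15.2 and 70.3), and read 99.6 and 172 in the untreated and treated arrays of day 8, close to the floor.

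Counted over the members, 2 of 6 measured were 2-fold or more apart between day 5 and day 6 in the controls, Uhrf1 higher and Dnmt3b lower. Over all genes 5.46% were 2-fold higher and 4.4% were 2-fold lower at this step. From day 6 to day 8, 2 of 7 were 2-fold lower, Dnmt3b and Tet1, and 0 were higher, against 6.43% lower and 7.07% higher over all genes. From day 5 to day 8 these were 1 higher (Uhrf1) and 2 lower (Dnmt3b and Tet1) of 7, against 9.61% and 7.27%. Under MPA from day 6 to day 8 there was 1 lower, Dnmt3b, and 0 higher of 7, where 7.64% of all genes were lower and 7.64% higher. The median log2 difference of the members from day 5 to day 8 was 0.15, beside 0.04 over all genes, so the members had no common direction. These comparisons share arrays and are not independent of each other. Other probe sets of the same gene on the same pair of arrays disagreed with a pooled SD of 0.40 to 0.50 on the log2 scale, and the Dnmt3b and Tet1 differences to day 8 were larger than that spread.

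**Figure D2:**
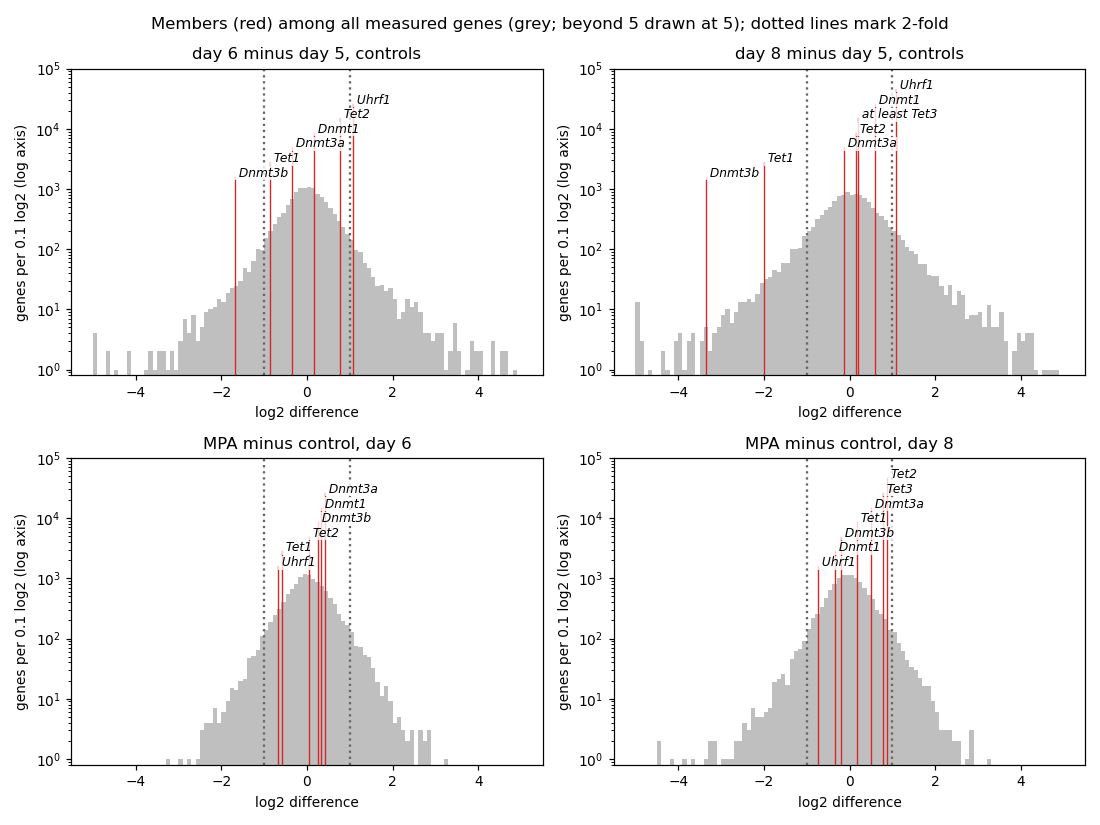
Histograms of the log2 difference of all measured genes (grey, gene number on a log axis) in 4 comparisons, with the members as red lines and 2-fold marked by dotted lines. Dnmt3b at -3.36 lies in the lower tail of day 8 against day 5, while with MPA at either day every member lies inside the 2-fold lines.

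Most markers of the pluripotent epiblast were lower over the same time as Dnmt3b and Tet1. Of 9 such genes, 7 were 2-fold or more lower in the day 8 control than at day 5, against 7.27% of all genes, with a list median of -5.64. The 1 higher gene was Sox2, which read 2959 at day 5 and 4784 in the day 8 control. The summed signal of the list was 61588 in day 5 cells, 13658 and 5500 in the controls of days 6 and 8, and 10623 and 3368 in the MPA arrays of these days. Pou5f1, of a core pluripotency factor, read 7598 at day 5, 1016 in the day 6 control and 96.0 in the day 8 control, and Nanog and Tdgf1 were under the floor at day 8. Fewer cells of a type and less RNA per cell cannot be told apart in these bulk samples, and the part of such cells in the Dnmt3b and Tet1 differences was not tested. Of 9 markers of naive pluripotent cells, 3 to 6 exceeded the floor on an array, with a summed signal of 782 to 2772, and Nr0b1, Dppa3 and Prdm14 were under it on all 5. Klf4, which is also a gene of differentiated epithelia, read 61.4 at day 5, 672 in the day 8 control and 1956 in the treated array. Of 7 pancreatic progenitor markers on the array, 3 to 6 exceeded the floor on an array. Their sum was 590 in day 5 cells, 2070 and 1341 in the controls of days 6 and 8, and 2254 and 2889 in the MPA arrays of these days. From day 5 to day 8 in the controls 3 of 6 measured were 2-fold or more higher (Mnx1, Neurog3 and Onecut1), against 9.61% of all genes. Neurog3 and Onecut1 were under the floor at day 5, so their folds are lower bounds. Pdx1, the defining factor, lay above the floor with MPA at day 8 only. Mesenchyme markers summed to 18015 in day 5 cells, 15392 and 39455 in the controls of days 6 and 8, and 16845 and 49826 in the MPA arrays of these days. The sum was lower at day 6 than at day 5, although 7 of the 8 markers were higher in that control and 1 lower (median log2 difference 0.90). Neural markers summed to 2099 in day 5 cells, 2657 and 11233 in the controls of days 6 and 8, and 1152 and 2368 in the MPA arrays of these days. They were higher in the day 8 control than on any other array. Of 5 germ cell markers on the array 2 to 3 exceeded the floor, with sums of 862 to 2490, and the defining genes Dazl and Ddx4 were under it on all 5 arrays. Of 6 blood markers 1 or 2 exceeded it, with sums of 238 to 830, and Ptprc, Spi1 and Hbb-bh1 were under it on all 5 arrays, while Runx1 reached 647 with MPA at day 8. The Gapdh 3'/5' signal ratio, a sign of RNA integrity, was 1.08 at day 5 and between 1.19 and 1.57 on the other arrays, and the Actb ratio was 2.08 at day 5 and between 2.71 and 3.06 on the others. The part of other cell types and of RNA integrity in the members' differences was not tested.

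With MPA, no member was 2-fold apart from its control at either day on its brightest probe set. At day 6 this was 0 of 6, while over all genes 4.02% were 2-fold higher (492 genes) and 3.15% lower (385), a split that median centring turned to 390 and 472. At day 8 it was 0 of 7, beside 3.72% higher and 3.18% lower. The largest member differences were those of Uhrf1 at day 6 and Tet2 at day 8. Uhrf1 was 1.59-fold lower with MPA at day 6 (2635 against 4178) and 1.68-fold lower at day 8 (2508 against 4204). At day 8, 7.08% of the measured genes were as far or farther down. The dimmer Uhrf1 probe set differed by log2 values of 0.02 and 0.03, so the difference, which exceeded the pooled SD between probe sets of 0.42 at day 6 and 0.40 at day 8, was not seen on both probe sets. In a limma fit of MPA, adjusted for day, over the 4 arrays of days 6 and 8, Uhrf1 had a log2 difference of -0.71 (SE 0.19, lower at both days), with an unadjusted p of 0.00565 and an adjusted p of 0.584. None of the 7 members fitted passed at an adjusted p under 0.05 (0 of 7), and over all genes 1 of 11599 passed, 0.00862%. An unadjusted p under 0.05 was reached by 1 of the 7 members and by 739 of the 11599 genes. With the mean over probe sets the limma fit gave Uhrf1 an unadjusted p of 0.147. At the same time the neural markers were lower with MPA, 6 of 7 measured by 2-fold or more at day 6 and 6 of 8 at day 8 (medians of -1.72 and -2.35), and in the fit 0 of 8 passed and 6 of 8 were lower at an unadjusted p under 0.05. Their part in the Uhrf1 difference was not tested. The fit has a single residual degree of freedom and takes the disagreement between the days as its error, so variation from culture to culture is not in it.

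Dnmt3a was higher with MPA on its brightest probe set at both days, 1.34-fold at day 6 and 1.40-fold at day 8. At day 8 all 5 of its probe sets were higher, by log2 differences of 0.30 to 0.62, while at day 6 they ran from -0.69 to 0.76. Tet2 was 1.82-fold higher with MPA at day 8 and 1.03-fold higher at day 6. Its second probe set read 277 with MPA against 532 at day 6 and 655 against 312 at day 8, the latter past the 2-fold threshold (2.10-fold). Both Tet2 probe sets were thus higher at day 8 and did not share a direction at day 6. Tet3 was 1.72-fold higher with MPA at day 8, between 2 values near the floor. The limma fit gave adjusted p-values of 0.802, 0.879 and 0.896 for Dnmt3a, Tet2 and Tet3.

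Dnmt1 went opposite ways at the 2 days. It was 1.25-fold higher with MPA at day 6 and 1.27-fold lower at day 8, and all 3 of its probe sets did the same, with log2 differences of 0.28 to 0.69 at day 6 and -0.47 to -0.34 at day 8. Dnmt3b was 1.19-fold higher at day 6 and 1.14-fold lower at day 8, less than the spread between probe sets. Tet1 was 1.49-fold lower with MPA at day 6 and 1.12-fold higher at day 8, and at day 6 its 3 probe sets above the floor did not share a direction (log2 differences of -0.70 to 0.99).

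**Figure D3:**
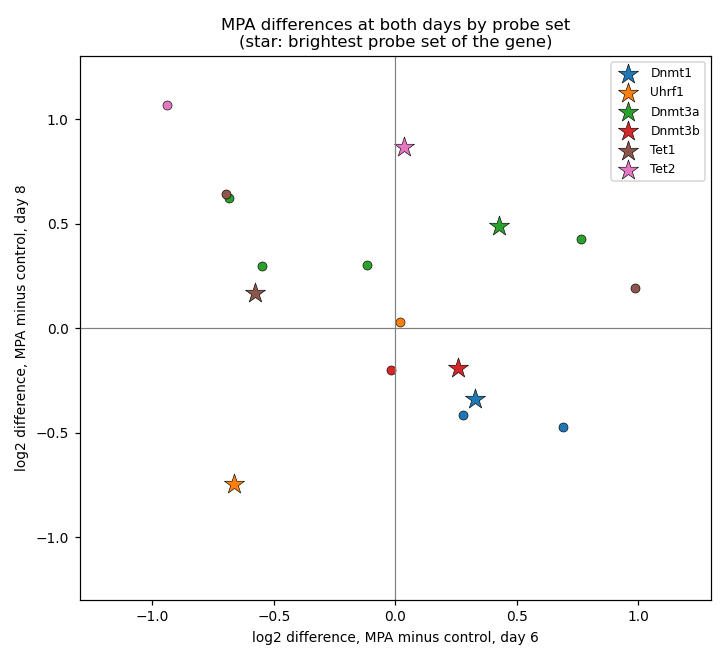
The log2 difference of MPA minus control at day 6 (x axis) and day 8 (y axis) for each probe set of 6 members above the floor, with the brightest probe set of a gene as a star. The 3 Dnmt1 points sit together at lower right, while the 5 Dnmt3a points share a height and spread along the x axis.

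The 12 maintenance partners are genes that act beside Dnmt1 and Uhrf1 at the replication fork. Examples are Usp7 (a deubiquitinase that binds both proteins) and Hells (a chromatin remodeller). Of the 12, 0 were 2-fold apart in any of the 6 comparisons, where 6.91% to 16.9% of all genes were. Their median was -0.24 from day 5 to day 8 in the controls, with 10 of 12 lower. Under MPA from day 6 to day 8 it was -0.49, again with 10 of 12 lower. With MPA their median was 0.02 at day 6 and -0.29 at day 8, when 9 of 12 were lower. Usp7 read 6233 without and 4331 with MPA at day 6, and 4436 and 3125 at day 8. Uhrf2, the paralogue of Uhrf1, read 1864 and 1222 at day 6, and 1604 and 1228 at day 8. Cdca7, a partner of Hells, read 2383 without and 1233 with MPA at day 8, against 1822 and 1840 at day 6. Cell division genes are given beside them. With MPA the S-phase list median was -0.09 at day 6 and -0.48 at day 8, when 13 of 16 were lower, and mitosis genes stood at -0.24 and -0.33, with 11 of 11 lower at day 8. The summed S-phase signal was 102716 in the day 8 control and 70483 in the treated array. The part of cell division in the Dnmt1 and Uhrf1 values was not tested. In the controls, where Uhrf1 was 2.13-fold higher at day 8 than at day 5, the S-phase list had a median of -0.20 and the mitosis list one of -0.49.

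Factors that steer de novo methylation, such as the KRAB cofactor Trim28 and the histone methyltransferase Setdb1, had medians of 0.12 from day 5 to day 8 and near 0 with MPA. None of them was 2-fold apart in any comparison (0 of 12 measured with MPA at either day). Over all genes 7.17% were 2-fold apart with MPA at day 6 and 6.91% at day 8. Suv39h2, a histone H3 methyltransferase, was the named one with the largest MPA difference, 1576 without and 839 with MPA at day 8. Among 20 genes of TET function and base excision repair, Gadd45g, a growth arrest gene that has been linked to demethylation, read 151 at day 5, 490 in the day 6 control and 970 in the day 8 control. Neil1, a DNA glycosylase, read 273 at day 5 and 103 in the day 8 control. Smug1, another glycosylase, was the 1 gene of this list 2-fold lower with MPA at day 6 (1188 untreated, 563 treated). Over all genes 3.15% were 2-fold lower there. The day 8 pair showed no such difference for Smug1, with 577 untreated and 576 treated, and its day 5 signal was 608. From day 5 to day 8 the list had 2 of 20 genes 2-fold higher and 4 lower, with a median of -0.19, against 9.61% and 7.27% of all genes.

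Readers of methylated CpG had the highest median of the methylation lists over the control time course, 0.54 from day 5 to day 8. Of 7 measured, 6 were higher and 2 of these 2-fold or more, against 9.61% of all genes. These 2, Mbd2 and Mbd6, were near or under the floor at day 5. Mbd2, which binds methylated DNA and recruits a histone deacetylase complex, read 125 at day 5, 210 in the day 6 control and 583 in the day 8 control. Mbd6 was at least 2.64-fold higher, from a value under the floor at day 5 to 229 in the day 8 control. With MPA the reader median was 0.40 at day 6 and 0.21 at day 8. Genes that supply the methyl donor S-adenosylmethionine had a median of -0.21 from day 5 to day 8, and with MPA of -0.08 at day 6 and -0.32 at day 8, when 7 of 9 were lower. Ahcy, which clears the inhibitory product of methylation, read 21024 in day 5 cells, 12943 and 10299 in the controls of days 6 and 8, and 11653 and 6089 in the MPA arrays of these days. Day 5 was the highest array and MPA at day 8 the lowest.

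**Figure D4:**
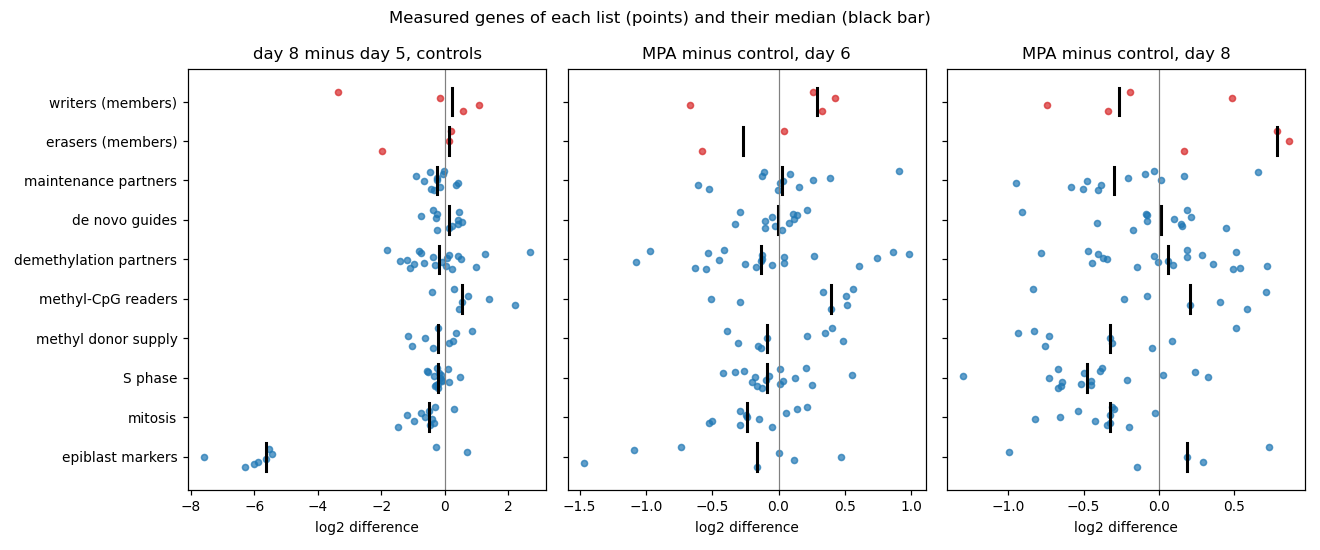
The log2 difference of every measured gene (points, a difference with 1 array at the floor drawn at its lower bound) and the median (black bar) of the members (red) and of related gene lists (blue) in 3 comparisons, with a separate x axis for each. Epiblast markers have a median of -5.64 from day 5 to day 8, while the 5 plotted lists of methylation-related genes other than the members have medians between -0.24 and 0.54 there.

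Germline genes that promoter methylation silences in somatic cells, such as Dazl and Mael, were looked at beside the enzymes. Of 15 on the array, between 1 and 4 lay above the floor on any array, so only 2 to 4 were measured in a comparison and the other members of the list had no difference to give. Of those measured, 0 were 2-fold apart in any of the 6 comparisons, where 6.91% to 16.9% of all genes were. With so few genes measured, a count of 0 says little about the list. Tdrkh, of a piRNA pathway protein, was above the floor throughout, reading 365 in day 5 cells and, among the day 8 arrays, 258 in the control and 243 in the treated one. Methylation itself was not measured.

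To place each member among other genes, profiles over the 5 arrays were centred and compared by their root mean square log2 difference, among 9085 genes that exceeded the floor everywhere. The nearest were Rbm18 for Dnmt1 (0.035), Slitrk5 for Uhrf1 (0.061), Rela for Dnmt3a (0.030), Tapbp for Dnmt3b (0.189), G2e3 for Tet1 (0.096) and Dstyk for Tet2 (0.065). For Dnmt3b the next were Bst2 (0.20) and Frzb (0.26), and for Tet1 Gas2l3 (0.13) and Atg2b (0.14). Between members, Dnmt1 and Dnmt3a were nearest (0.31), Dnmt3b lay 0.70 from Tet1 and at least 1.40 from each of the other 4. The ranges of Dnmt1 and Dnmt3a were narrow (1.50-fold and 1.64-fold), which by itself keeps their distance small. It does not mean a shared course, since with MPA at day 8 their log2 differences were -0.34 and 0.49. A small distance over 5 arrays describes these arrays only.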

How the data were processed

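Total RNA (100 ng) was turned into biotinylated cRNA for the arrays, per the labels' protocols. The deposited intensity is linear, with 1 value per probe set, and comes from MAS5 per the submitters' processing notes; its version is not given in the sources used here. Each array has a 2% trimmed mean of 500. Signals under 86.8 were raised to that floor, log2 was taken, and a gene counted as measured with at least 1 of the compared arrays above it. Where 1 of the arrays was at the floor the fold is written as at least its value, and 2-fold was the threshold. Of 45101 probe sets, 64 were controls, 34945 had 1 gene symbol in the platform annotation, 932 had several and 9160 were unnamed here.

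The MPA term was fitted in limma 3.58.1 (R 4.3.3; lmFit, eBayes with trend and robust, Benjamini-Hochberg) on genes that exceeded the floor on 2 or more of the 4 arrays. On simulated data of 11599 genes the fit called 37.0%, 92.7% and 100% of genes changed by log2 1, 2 and 3. It made 12 false calls in all. On the real arrays 0 of 8 neural markers passed, at a median log2 difference of -1.89. The simulation gave all genes of similar signal the same size of normal error, which real genes need not have. Whether the simulated shares hold for the real arrays was not tested. Python 3.11.15 was used otherwise. Named genes were all members, up to 3 genes of a list by size of the mean MPA difference, up to 3 by the control difference, and the 3 nearest profiles of each member; not all are printed. Genes named as examples of a list without values, and markers named as under the floor, were not chosen by this rule. The members and lists were chosen with earlier results of these data known. Alternatives were 7 settings of scaling, floor, log scale and probe sets, and for limma also the variance model, the day term and the filter.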

Additional observations from a re-analysis of the deposited data

Results flagged for a closer look

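3 members had MPA differences of opposite sign at day 6 and day 8, each from 1 array against 1, and the difference between the days was not tested. For Dnmt1 the log2 difference at day 8 minus that at day 6 was -0.67, with all 3 probe sets going the same way, and 30.5% of 11007 genes had a day difference as large or larger in either direction. For Dnmt3b it was -0.45 and for Tet1 0.75, where 47.7% and 25.9% of genes were as far or farther apart, and in both genes 1 probe set above the floor did not show the opposite signs.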

How the results depend on the processing

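No paired analysis was possible because each group had 1 array and no replicate number to pair by; the limma fit had day as a term. Of 264 recomputed member differences, 251 moved by less than the spread between probe sets of a gene and 13 by more, and 0 of the 2-fold differences changed sign. Many of the 251 could not move. A changed floor leaves genes above it as they were, and leaving out probe sets changes only genes whose brightest one is left out. Most of the 13 came from the mean over probe sets, so the 251 are no measure of robustness to the choice of probe set. Dnmt3b from day 5 to day 8 ran from -3.62 to -3.26 over 7 settings, Tet1 from -2.27 to -1.57 and Uhrf1 from 0.43 to 1.12 over 8, the lowest Uhrf1 value from the mean over its probe sets. Under a floor at the 25th percentile, where Dnmt3l and Tet3 enter, the members 2-fold apart were 2 with MPA at day 6, 1 with MPA at day 8, 4 from day 5 to day 6, 4 from day 6 to day 8 and 3 under MPA from day 6 to day 8, and 2 had MPA differences 2-fold apart between the days in place of 0. With the mean over probe sets these were 3 from day 5 to day 6 (Dnmt3b, Tet1 and Tet2), 1 from day 6 to day 8 (Dnmt3b), 2 from day 5 to day 8 (Dnmt3b and Tet1) and 1 between the days (Tet2), so neither Uhrf1 call was kept. Without _s_at, _x_at and _a_at probe sets, which leaves out Dnmt1, Dnmt3b and Dnmt3l, they were 1 from day 5 to day 6, 1 from day 6 to day 8, 0 under MPA and 1 between the days (Tet1). In limma 0 members passed under any of the 10 alternatives, with a lowest adjusted p of 0.522 to 1, and genes called over all were 1 or 0 (at an unadjusted p under 0.05, 71 to 934). The excess of 2-fold higher over lower genes from day 6 to day 8 turned under quantile normalization (770 and 963) and median centring (856 and 872).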
